A study of Mus musculus with 4 samples.

Results

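The matrix metalloproteases (MMPs), the ADAMTS proteases with their ADAMTS-like (ADAMTSL) relatives, and the tissue inhibitors of metalloproteases (TIMPs) were examined in ureters of mouse embryos that lacked 2 fibroblast growth factor receptor genes in the ureteric mesenchyme. Members were all non-control probes whose gene name in the scanner files is Mmp, Adamts, Adamtsl or Timp followed by digits. This gave 74 of 39429 probes, for 51 of the 29875 genes on the array. Of these, 44 probes of 32 genes were bright enough to be tested: 8 of 23 MMPs, 16 of 19 ADAMTS proteases, 4 of 5 ADAMTSL genes and all 4 TIMPs.

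MMPs are zinc enzymes that cut collagens, laminins and other matrix proteins, and many of them need another protease to remove their propeptide before they work. ADAMTS proteases are secreted and carry thrombospondin repeats that tether them to the matrix; their substrates include hyaluronan-binding proteoglycans such as versican, procollagens and fibrillin-linked proteins, whereas ADAMTSL proteins have the repeats without a protease domain. TIMPs bind the active site of MMPs, and TIMP3 also inhibits several ADAM and ADAMTS enzymes. In the developing ureter the mesenchyme that surrounds the epithelium lays down a matrix while it differentiates into smooth muscle and connective tissue.

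The mutant embryos carried Tbx18(cre/+), Fgfr1(fl/fl) and Fgfr2(fl/fl) and are called cDKO (conditional double knockout). Control embryos carried Fgfr1(fl/?) and Fgfr2(fl/?), in which the second allele is not specified, and no cre allele is named for them, so the groups also differ by the cre insertion at Tbx18, a gene of the ureteric mesenchyme. All were NMRI mice at E14.5 (embryonic day). Ureter RNA of both genotypes was hybridised together on each of 4 arrays, which gave n = 4 log2 ratios of cDKO over control for every gene. Errors after ± are standard errors (SE) from the fit, except where SD is written. Because no label ties a replicate to single or pooled animals, the p-values describe only how much these 4 pairs of extracts vary. In whole ureters, fewer cells of a type and less RNA per cell cannot be told apart.

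Replicates 1 and 2 lay on slide 1 and replicates 3 and 4 on slide 2, and slide, scan and scanner changed together. The cDKO RNA was labelled with Cy5 on replicates 1 and 3 and with Cy3 on replicates 2 and 4; replicates 1 and 4 are labelled female and replicates 2 and 3 male. The number of arrays limits the precision; no spot was saturated, and between 64.9% and 72.6% of the spots of a channel were well above background. Over all genes, 165 of 19365 passed an adjusted p under 0.05, the threshold for calling a gene changed. The brightest Fgfr2 probe gave a log2 ratio of 0.59 ± 0.07 (adjusted p = 0.0356) and the brightest Fgfr1 probe -0.40 ± 0.10 (adjusted p = 0.117). The other 2 Fgfr1 probes stood at -0.54 ± 0.07, with ratios from -0.63 to -0.48, and at -0.03 ± 0.08. The sources used here do not say whether these probes lie in the floxed exons, so they check neither label. The Y-linked transcript Eif2s3y had levels of 13.03 to 13.42 (log2 intensity) in the channels labelled male and of 7.02 to 11.02 in those labelled female, the highest of the latter in the control channel of replicate 1. The X-inactivation transcript Xist had levels of 6.26 to 10.58 in the channels labelled male, the highest in the control channel of replicate 2, and of 12.59 to 12.76 in those labelled female. Each array carries 1 sex label, so a sex label term in the fit compares the ratio of cDKO over control between the sexes, not their levels. With 1 residual degree of freedom, no member reached an unadjusted p under 0.05 for this term. Over all genes the count was small too, at 207 of 19365, and none was called by limma.

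The results turn on 4 genes with a pair of probes each, shown here because in 3 of them the probes of 1 gene gave different ratios and in Adamts18 they gave like ratios. Each line gives the leading 30 of the 60 bases of a probe as the scanner files hold it, in lower case with no base marked. Positions are of mouse build mm9, as the files give them. The files name a transcript for each probe but no exon boundaries, so exon, intron or untranslated region is not stated. The named transcript differed between the probes of Adamts4 and between those of Adamts18. It was the same for both probes of Adamts8 and for both of Timp2.
Adamts4, upstream probe (chr1:173189952-173190011, plus strand): cgcatctttgagcattagttttctcatgtg
Adamts4, downstream probe (chr1:173190709-173190768, plus strand): aatgagaggaacaggatgtggtctggtatt
Adamts18, 5′-side probe (chr8:116368682-116368741, minus strand): gctctaatggaactcgttctttcgtgtttt
Adamts18, 3′-side probe (chr8:116222720-116222779, minus strand): ccatagggtttaaagaatggacagatagcc
Adamts8, 5′-side probe (chr9:30751050-30751109, plus strand): cagaagactcccgcaaagtgccaccaccct
Adamts8, 3′-side probe (chr9:30770384-30770443, plus strand): acccatttcaagtatttatgcaaatatgtc
Timp2, 5′-side probe (chr11:118171964-118178741, minus strand, its ends on both sides of a gap): taattgcaggaaaggcagaaggagatggca
Timp2, 3′-side probe (chr11:118163146-118163205, minus strand): ccgtgagcgttcttgtgccgtgttgatgcc

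As genes, none of the 32 tested members was called changed by limma, against 0.852% of all genes tested. The member nearest to the threshold was Adamts18, with an adjusted p of 0.0505. With a slide term in the fit, which left 1 residual degree of freedom, 13 members were called, against 12.5% of all genes. Of these, 11 were higher, namely Adamts4, Adamts7, Adamts8, Adamts15, Adamts16, Adamts17, Adamts18, Adamts19, Adamtsl4, Mmp17 and Timp2, and 2 were lower, Timp3 and Timp4. Their adjusted p in that fit ran from 0.000156 (Adamts4) to 0.0408 (Adamts16), with 0.00327 for Adamts18. Without the slide term, 14 members had an unadjusted p under 0.05, 12 higher and 2 lower in cDKO ureters. This is 43.8% of the members against 19.6% of all genes. Over all genes the share was 11.7% for higher and 7.88% for lower ratios. The count of 14 became 9 without replicate 1 (8.48% of all genes), 9 with median centring (6.65%) and 5 within slide 2 (6.95%). All 4 arrays had the same sign in 17 members, 13 of them higher and 4 lower, or 53.1% against 25.2% of all genes (13.4% higher and 11.8% lower). The median log2 ratio was 0.13 over the members and 0.0086 over all genes, and by family it was 0.26 over the ADAMTS proteases, 0.12 over ADAMTSL, 0.09 over the MMPs and -0.19 over the TIMPs. Differences between families were not tested. The family medians were farther from 0 on slide 1 than on slide 2: 0.38 and 0.11 for ADAMTS, 0.25 and 0.05 for ADAMTSL, 0.11 and 0.05 for the MMPs, and -0.14 and -0.05 for the TIMPs.

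**Figure D1:**
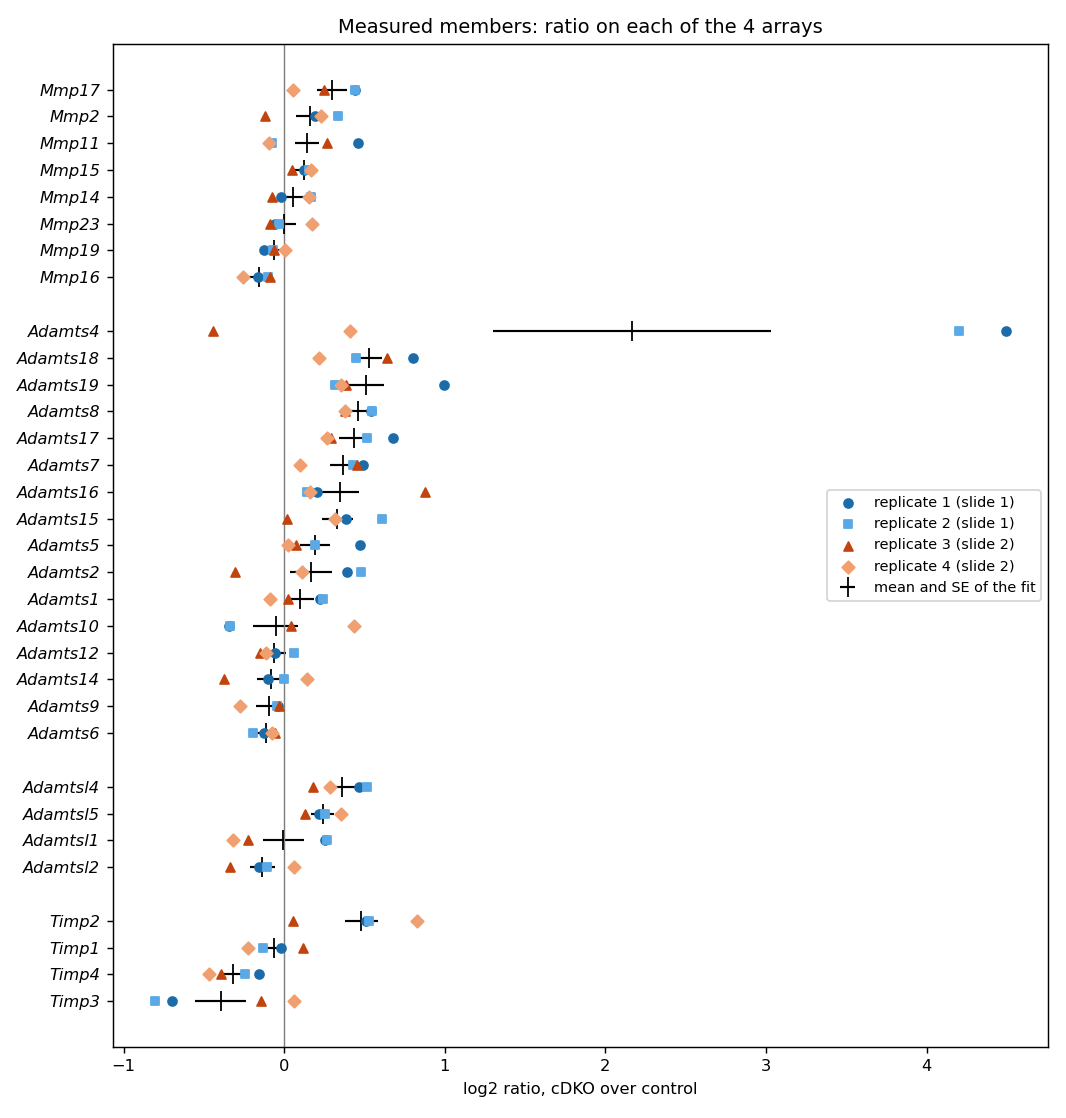
Log2 ratio of cDKO over control (x axis) for each of the 32 tested members (y axis, grouped as MMP, ADAMTS, ADAMTSL and TIMP), with 1 point per array coloured by slide and a black tick and bar for the mean and SE of the fit over 4 arrays. All members but Adamts4 lie within 1 log2 unit of 0 on every array, and Adamts4 stands at 4.49 and 4.20 on slide 1 and at -0.44 and 0.41 on slide 2.

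Adamts16, Adamts17, Adamts18 and Adamts19 belong to 2 pairs of closely related ADAMTS proteases whose substrates are less well defined than those of the other classes. All 4 had ratios above 0 on all 4 arrays and an unadjusted p under 0.05, with a median of 0.47, and none passed the adjusted threshold as a gene. The log2 ratios of Adamts18, measured with its 3′-side probe, were 0.80, 0.45, 0.64 and 0.22 on replicates 1 to 4. Its level was 9.31 ± 0.26 in the cDKO channels and 8.78 ± 0.19 in the control channels (log2 intensity, SD, n = 4), and on each array the cDKO channel was the brighter one, although the highest control value (9.05, replicate 2) exceeded the lowest cDKO value (8.96, replicate 4). The fit gave 0.53 ± 0.08, a 1.44-fold higher signal, with an adjusted p of 0.0505.

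The 5′-side probe of Adamts18 was the 1 member probe of 44 that passed when every probe was tested on its own and adjusted over 25591 probes, of which 0.594% passed. Its ratios were 0.67, 0.50, 0.73 and 0.38, above 0 on every array, and its fitted log2 ratio was 0.57 ± 0.07 (adjusted p = 0.0392). In this probe the cDKO levels, from 8.61 to 8.96, did not overlap the control levels, from 7.96 to 8.45. How many of all probes lacked such an overlap was not counted. The call was lost without replicate 1 (adjusted p = 0.206), without replicate 2 (0.0915) and without replicate 3 (0.0903), and it was kept without replicate 4 (0.0477). It was also lost when the arrays were centred on their median in place of loess (adjusted p = 0.109).

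Adamts19, the closest relative of Adamts17, had ratios of 0.99, 0.31, 0.38 and 0.36, so replicate 1 stood well above the others. Its fitted ratio was 0.51 ± 0.11, or 1.43-fold, with an adjusted p of 0.0918. Adamts17 had ratios of 0.68, 0.51, 0.29 and 0.26, both values of slide 1 above both of slide 2, and a fitted ratio of 0.44 ± 0.10 (1.35-fold, adjusted p = 0.0950). Adamts16, which can cleave fibronectin, had 0.20, 0.14, 0.88 and 0.16, with replicate 3 far above the rest. Its fitted ratio was 0.35 ± 0.12, or 1.27-fold, with an adjusted p of 0.187.

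The hyalectanases, which cut versican and aggrecan, were represented by Adamts1, Adamts4, Adamts5, Adamts8, Adamts9 and Adamts15. Of these 6 genes, 5 had a fitted ratio above 0, 3 had an unadjusted p under 0.05, and none was called as a gene. Adamts8 had the most even ratios across arrays: its 3′-side probe stood at 0.54, 0.55, 0.38 and 0.38. The cDKO levels of this probe, 8.62 ± 0.07 (SD, n = 4), lay above the control levels, 8.16 ± 0.16, with no overlap. The fitted ratio was 0.46 ± 0.08, or 1.38-fold, with an adjusted p of 0.0587. The 5′-side probe of Adamts8 gave -0.04, -0.14, -0.02 and -0.19, and a fitted ratio of -0.10 ± 0.07. The 2 probes of Adamts8 were therefore on opposite sides of 0 on all 4 arrays. Levels of the 2 genotypes were also without overlap in Adamts7, Adamts15 and Adamts17, with cDKO above, and in Mmp16, with cDKO below. How many of all genes lacked overlap was not counted, for these or for the members described below.

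Adamts15 had ratios of 0.38, 0.61, 0.02 and 0.32, with replicate 3 close to 0, and a fitted ratio of 0.33 ± 0.10 (1.26-fold, adjusted p = 0.149). Adamts5, a main aggrecanase of cartilage, had a fitted ratio of 0.19 ± 0.09 with ratios from 0.02 to 0.47. Adamts1 stood at 0.10 ± 0.09, above 0 on 3 arrays and below on replicate 4. Adamts9 stood at -0.10 ± 0.08, and its other probe at 0.09.

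Adamts4 gave the ratio farthest from 0 among the members and the one that differed most between slides. Its downstream probe had control levels of 7.89 and 7.93 on replicates 1 and 2 and of 12.13 and 11.65 on replicates 3 and 4, whereas the cDKO levels were 12.38, 12.12, 11.69 and 12.05. The low values were thus the control channels of slide 1, one in Cy3 and one in Cy5, while the control channels of slide 2 were at the cDKO level. The log2 ratios were 4.49, 4.20, -0.44 and 0.41. Over the 4 arrays the fitted ratio was 2.16 ± 0.86, or 4.48-fold, and was not called (adjusted p = 0.239); the mean of slide 1 was 4.35 and that of slide 2 was -0.02. Without replicate 3 the ratio was 3.40 and was called (adjusted p = 0.0422), and it was 0.93 without replicate 1 (adjusted p = 0.779), 1.22 without replicate 2 (adjusted p = 0.531) and 3.11 without replicate 4 (adjusted p = 0.0974).

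The upstream probe of Adamts4, which starts 757 bases before the other, did not show these levels. Its control levels were 10.91, 10.90, 10.34 and 10.31 and its cDKO levels 10.43, 10.49, 10.26 and 10.26, so cDKO was the dimmer channel on every array. The ratios were -0.49, -0.40, -0.09 and -0.04, with a fitted ratio of -0.25 ± 0.10 (adjusted p over probes = 0.253). When the 2 probes were averaged, Adamts4 stood at 0.96 (adjusted p = 0.260).

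**Figure D2:**
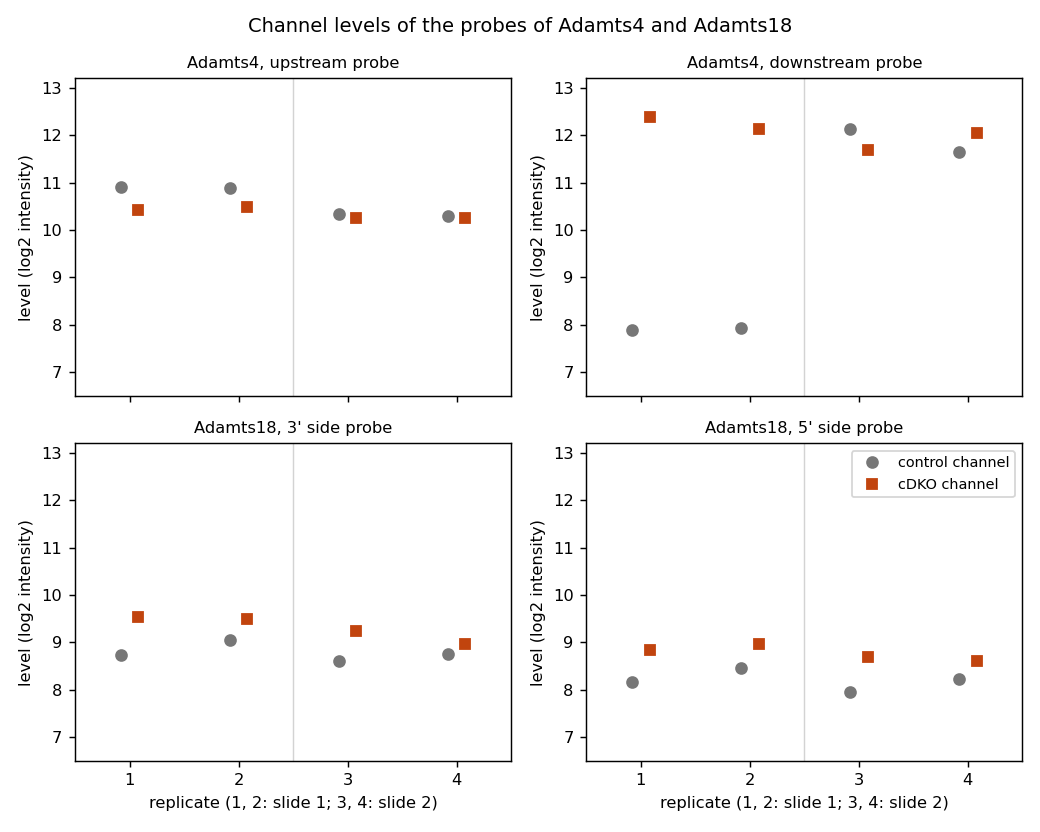
Level in log2 intensity (y axis) of both probes of Adamts4 and both probes of Adamts18 in the control channel (grey circles) and the cDKO channel (orange squares) of each replicate (x axis, slide 1 left and slide 2 right of the line). The downstream Adamts4 probe reads 7.89 and 7.93 in the control channels of slide 1 and at least 11.65 in all other channels, and in both Adamts18 probes the cDKO channel is the brighter on every array.

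The difference between slides was tested with a slide term in the same model, which left 1 residual degree of freedom. Adamts4 was the only member of 32 called (slide 2 minus slide 1, -4.36, adjusted p = 0.000292), against 0.893% of all genes. At an unadjusted p under 0.05 there were 6 members, against 14.3% of all genes. Timp3 came next, with a difference of 0.71 (adjusted p = 0.0833). The probes within 250 kb of the downstream Adamts4 probe were then inspected, a window chosen after its values were seen. Of 29 other tested probes of 23 genes in this window, 2 had a mean log2 ratio above 1 on slide 1, 1 of Apoa2 (1.32) and 1 of B4galt3 (1.64), while the other probes of the same genes stood at 0.18 and -0.09. Over all tested probes, 120 or 0.469% exceeded 1 on slide 1.

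Among the other ADAMTS classes, Adamts7 and Adamts12 cleave cartilage oligomeric matrix protein. Adamts7 had ratios of 0.49, 0.43, 0.45 and 0.10, above 0 on every array with replicate 4 the lowest. Its fitted ratio was 0.37 ± 0.08, or 1.29-fold, with an adjusted p of 0.102, and Adamts12 stood at -0.07 ± 0.08. The procollagen N-propeptidases Adamts2 and Adamts14, which trim fibrillar procollagens, stood at 0.17 ± 0.13 and -0.08 ± 0.08. In Adamts2 the slide means were 0.43 and -0.10. Adamts6 and Adamts10, which act on fibrillin microfibrils and their surroundings, stood at -0.11 ± 0.07 and -0.05 ± 0.14, and Adamts10 had a mean of -0.34 on slide 1 and 0.23 on slide 2.

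The ADAMTSL genes had 2 members with an unadjusted p under 0.05, both higher in cDKO, and none called. Adamtsl4, a microfibril-associated protein needed for the suspension of the eye lens, had ratios of 0.47, 0.52, 0.18 and 0.29, with both values of slide 1 above those of slide 2. Its cDKO levels, from 9.39 to 9.69, lay above its control levels, from 9.16 to 9.21. The fitted ratio was 0.36 ± 0.09, or 1.29-fold, with an adjusted p of 0.109. Adamtsl5, which binds fibrillin, had ratios of 0.22, 0.26, 0.13 and 0.36 and a fitted ratio of 0.24 ± 0.07 (1.18-fold, adjusted p = 0.161), but its other probe stood at -0.06. Adamtsl2, linked to the control of transforming growth factor beta in the matrix, stood at -0.14 ± 0.08. Adamtsl1 stood at -0.01 ± 0.13, with a mean of 0.26 on slide 1 and -0.27 on slide 2.

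Among the MMPs none of 8 tested genes was called and 1 had an unadjusted p under 0.05. This was Mmp17, which is held at the membrane by a lipid anchor, with ratios of 0.44, 0.44, 0.25 and 0.05. All were above 0 and both values of slide 1 exceeded those of slide 2, and the cDKO levels, from 8.67 to 8.85, lay above the control levels, from 8.41 to 8.61. The fitted ratio was 0.30 ± 0.09, or 1.23-fold, with an adjusted p of 0.168. The other membrane MMPs stood nearer to 0: Mmp14, the activator of pro-MMP2, at 0.05 ± 0.07, Mmp15 at 0.12 ± 0.07, Mmp16 at -0.15 ± 0.07, and Mmp23 at -0.002 ± 0.08. Mmp15 was above 0 and Mmp16 below 0 on all 4 arrays.

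The secreted MMPs showed no call either. Mmp2, the gelatinase made by mesenchymal cells, had ratios of 0.19, 0.33, -0.12 and 0.23 and a fitted ratio of 0.16 ± 0.08. Mmp11, which is activated inside the cell by furin, had 0.46, -0.07, 0.27 and -0.09, positive on the arrays with cDKO RNA in Cy5 and negative on those with it in Cy3, and a fitted ratio of 0.14 ± 0.08. Mmp19 stood at -0.06 ± 0.07.

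The ratios of the 4 inhibitors lay on both sides of 0; none was called by limma, and 3 had an unadjusted p under 0.05. Timp2, which with Mmp14 forms the complex that activates pro-MMP2, had ratios of 0.51, 0.53, 0.05 and 0.83 with its 3′-side probe, above 0 on every array but near 0 on replicate 3, where its control level was the highest of the 4 (16.10 against 15.39 to 15.66). The fitted ratio was 0.48 ± 0.10, or 1.39-fold, with an adjusted p of 0.0931. The 5′-side probe of Timp2 gave 0.15, 0.19, -0.11 and -0.06, positive on slide 1 and negative on slide 2, and a fitted ratio of 0.04 ± 0.09.

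Timp3, the inhibitor bound to the matrix, had ratios of -0.70, -0.80, -0.14 and 0.06. The values of slide 1 were far below those of slide 2, and the fitted ratio was -0.40 ± 0.16, a 1.32-fold lower signal in cDKO (adjusted p = 0.239). Fitted on slide 1 alone the ratio was -0.75 and was called, and on slide 2 alone it was -0.04. Timp4 had ratios of -0.16, -0.25, -0.40 and -0.47, below 0 on every array, and its cDKO levels, from 7.74 to 8.09, lay below its control levels, from 8.14 to 8.26. Its fitted ratio was -0.32 ± 0.08, or 1.25-fold lower, with an adjusted p of 0.125. Timp1 stood at -0.07 ± 0.07, with signs that differed between arrays.

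**Figure D3:**
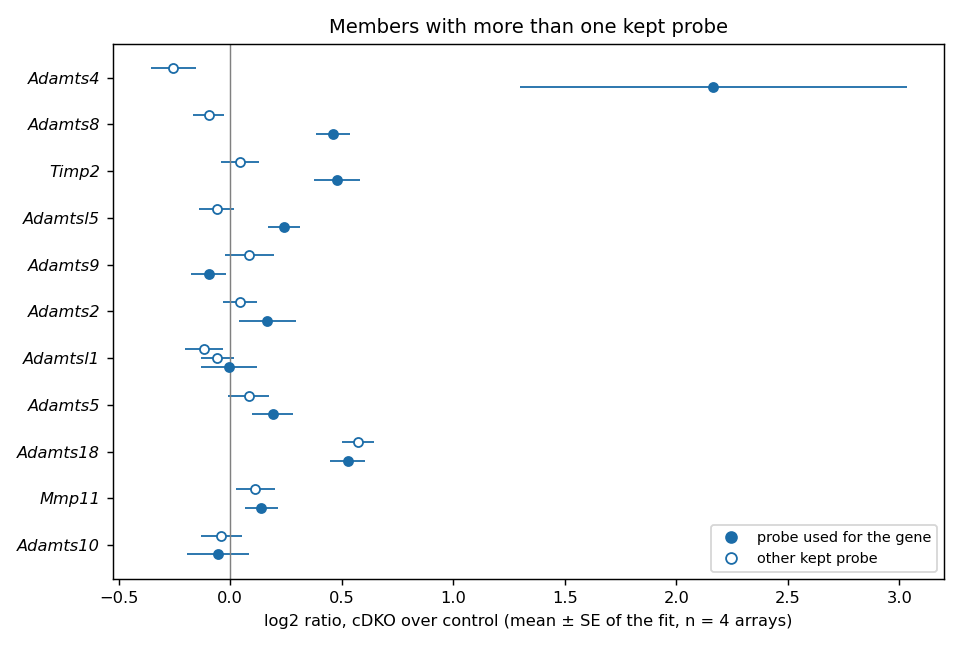
Fitted log2 ratio of cDKO over control with its SE over 4 arrays (x axis) for every tested probe of the 11 members with more than 1 such probe (y axis), ordered by the distance between probes, with the probe used for the gene filled. The probes of Adamts4 and Adamts8 lie on opposite sides of 0 and more than 0.5 apart, and those of Adamts18 lie at 0.53 and 0.57.

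Several tested probes were available for 11 members, 23 probes in all. In 7 of these the probes had the same sign, and in Adamts4, Adamts8, Adamts9 and Adamtsl5 they did not. Probes were more than 0.5 apart in 2 members, Adamts4 (2.42) and Adamts8 (0.56), followed by Timp2 at 0.44. The ratio of a gene with a single tested probe therefore has no such check here. Among the genes with an unadjusted p under 0.05, this holds for Adamts7, Adamts15, Adamts16, Adamts17, Adamts19, Adamtsl4, Mmp17, Timp3 and Timp4. Adamts16 and Adamts17 each had another probe that was too dim to be tested. That of Adamts16 was well above background on no array. That of Adamts17 was well above background on 3 arrays in each channel, with ratios of 0.03, 0.08, -0.02 and 0.15.

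The slide means of the members can be set side by side. The median over the 32 members was 0.21 on slide 1 and 0.05 on slide 2, while that over all genes was 0.0025 and 0.0082. In 26 members (81.3%) the slide means had the same sign, against 61.0% of all genes, and in 23 members (71.9%) the slide 1 mean was the farther from 0, against 62.6% of all genes. Across members the correlation of the slide means was r = 0.17 and Spearman's rho = 0.62, or 0.59 and 0.66 without Adamts4; these are descriptions over genes measured on the same arrays.

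The remaining 19 members were not tested because no probe was well above background on all 4 arrays of a channel. They are Mmp1a, Mmp1b, Mmp3, Mmp7, Mmp8, Mmp9, Mmp10, Mmp12, Mmp13, Mmp20, Mmp21, Mmp24, Mmp25, Mmp27, Mmp28, Adamts3, Adamts13, Adamts20 and Adamtsl3, with 26 probes. They include the interstitial collagenases Mmp8 and Mmp13, the stromelysins Mmp3 and Mmp10 and the gelatinase Mmp9. In 17 of the 19 no array was well above background in either channel. The other 2 were Adamts3, seen on up to 3 arrays in each channel, and Mmp24, seen in 2 control channels. No ratio is given for them, and a low level in these ureters cannot be told apart from a weak probe.

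The rest of the matrix protease system was described with 6 gene lists, in none of which a gene was called by limma. The median log2 ratio was 0.07 over 10 of 10 ADAM proteases, the membrane-bound relatives of ADAMTS enzymes. In that list 1 gene had an unadjusted p under 0.05, Adam22 at 0.36 ± 0.09 (adjusted p = 0.110), and Adam23 followed at 0.19 ± 0.09. It was 0.0089 over 10 of 14 other inhibitors and regulators, of which 1 was higher and 2 lower at that level. Among them the membrane-anchored MMP inhibitor Reck stood at 0.26 ± 0.08 (adjusted p = 0.160) and the serpin Serpinf1 at -0.25 ± 0.08 (adjusted p = 0.156).

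Enzymes that activate MMPs, with the plasminogen system, had a median of 0.08 over 12 of 13 genes, 3 higher and 1 lower at an unadjusted p under 0.05. The list holds 4 proprotein convertases. Furin, which removes the propeptides of membrane MMPs, Mmp11 and ADAMTS proteases, stood at 0.37 ± 0.11 (adjusted p = 0.146), and Pcsk6 at 0.35 ± 0.08 (adjusted p = 0.0953), while Pcsk5 stood at 0.08 ± 0.09 and Pcsk7 at -0.15 ± 0.07, both named after their values were seen. The astacins and procollagen processing proteins had 4 of 8 genes tested, a median of 0.0049 and none with an unadjusted p under 0.05; Bmp1, the procollagen C-proteinase, stood at 0.15 ± 0.10 and Pcolce2 at -0.13 ± 0.08. The cysteine cathepsins and heparanases had a median of -0.05 over 9 of 9 genes, with 2 lower: Ctsh at -0.59 ± 0.10 (adjusted p = 0.0533) and Ctss at -0.36 ± 0.08 (adjusted p = 0.0918).

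The substrates of these proteases had a median of 0.18 over 23 of 24 genes, and 19 of the 23 stood above 0, as did 10196 of the 19365 genes tested. On slide 1 the substrate median was 0.31, against 0.04 on slide 2. Of the 23 genes, 14 differed between slides at an unadjusted p under 0.05, against 14.3% of all genes, with none called by limma. At an unadjusted p under 0.05, 7 were higher and 2 lower. Thbs1, a thrombospondin of the matrix, stood at 0.51 ± 0.09 (adjusted p = 0.0616). Lama1, a laminin chain of early basement membranes, stood at 0.91 ± 0.18 (adjusted p = 0.0781). Vcan, the versican cut by the hyalectanases and named here after its values were seen, had ratios of 0.26, 0.03, 0.06 and 0.33, all above 0, with an unadjusted p above 0.05.

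**Figure D4:**
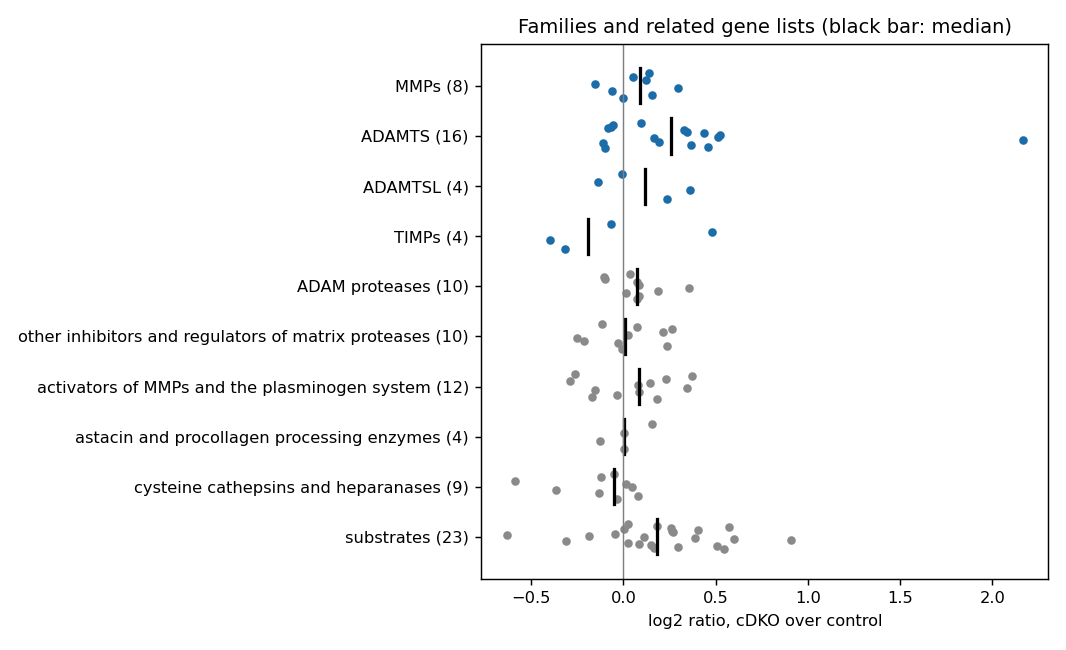
Fitted log2 ratio of cDKO over control (x axis) of each tested gene in the 4 member families (blue) and the 6 related lists (grey), with the number tested in brackets and a black bar at the median. The ADAMTS median of 0.26 is the highest of the 10 groups shown and the TIMP median of -0.19 the lowest.

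Markers of the cell types in the dissected tissue differed in the same RNA. Urothelium markers were measured for 9 of 9 genes and ureteric mesenchyme markers for 7 of 7. The urothelial list had a median of -0.59, with 7 of 9 genes below 0 and 6 lower at an unadjusted p under 0.05. The 2 called by limma were Upk1b, lower by 1.43, and Krt20, lower by 0.62 on the log2 scale. Foxa1 stood at 0.17, Krt5 at 0.12 and Trp63 at -0.03, none of them called. The summed intensity of the urothelial list was 30147 to 40703 in cDKO against 34963 to 41646 in control channels. It was weighted towards Foxa1, the brightest of the 9, with mean levels of 14.42 in cDKO and 14.25 in control. The mesenchymal list had a median of 0.26 with none called by limma and, at an unadjusted p under 0.05, 4 higher and 1 lower. The 4 include Tbx18, the site of the cre insertion in cDKO, at 0.26 ± 0.08. The summed intensity of this list was 75395 to 85789 against 65655 to 73422, with no overlap. The macrophage, erythroid and cartilage sums given below did not overlap either.

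Macrophage markers, measured for 11 of 11 genes, had a median of -0.35, and Fcer1g fell by 0.52; the summed intensity was 15518 to 19291 in cDKO against 20381 to 24256 in control. Endothelial markers (9 of 9) had a median of -0.31, and Emcn fell by 0.58, with sums of 26367 to 32767 against 29086 to 41687. Erythroid markers (8 of 8) had a median of -0.31, and Hba-x and Hbb-bh1 fell by 0.66 and 0.54. The sums were 156910 to 200800 against 207330 to 237150. Most of each sum came from Hbb-y, with mean levels of 17.18 in cDKO and 17.52 in control. Mesothelial markers (4 of 4) had a median of -0.35, and Msln fell by 0.82, whereas Wt1 stood at 0.26 and was not called. The sums were 8799.5 to 14157 against 8102.3 to 12170. They were weighted towards Wt1, the brightest of the 4, with mean levels of 13.09 in cDKO and 12.83 in control.

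Cartilage markers, with 5 of 7 measured and Matn1 and Comp not, had a median of 0.03, and 4 of the 5 stood above 0. Sox9 at 0.66 and Col2a1 at 0.64 were higher at an unadjusted p under 0.05 and were not called by limma. Hapln1 fell by 0.54 and was called. The sums were 26802 to 30659 in cDKO against 24746 to 26094 in control. Smooth muscle markers (6 of 6) had a median of 0.05, none called by limma and 3 with an unadjusted p under 0.05, with sums of 11536 to 23518 against 9700.6 to 14649. Skeletal muscle markers (4 of 4) had a median of 0.12 and none at that level, with sums of 847.38 to 2077.5 against 616.66 to 2133.4. The part of these cell types in the ratios of the proteases and inhibitors was not tested.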

How the data were processed

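RNA of cDKO and control ureters was compared on 4 Agilent arrays with 2 colours. Per the file headers, the authors' scanner files hold raw spot intensity and local background intensity for each channel, with positions on mm9, and the submitters' processing notes name Agilent Feature Extraction 10.7.3.1. The authors' deposited value table holds a signed fold per probe (a score, with no value between -1 and 1), and the sources used here do not give its scaling. Each of its columns has a median of 1, and it correlated with the log2 ratios at 0.909 to 0.945, so a positive fold means higher in cDKO. No column lacked a sample (0).

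Background was corrected with normexp (offset 50) on the deposited intensity, followed by loess within arrays (span 0.3), and log2 ratios were turned to cDKO over control. Control and outlier-marked spots had no weight. A probe (25591 of 39429) was tested where 3 or more of 4 spots passed the scanner's background flag, on all 4 arrays, in cDKO or in control channels. The brightest such probe stood for a gene. Channel levels were scaled between arrays by Aquantile. Probes were named by accession in a RefSeq gene table (28328 probes), by current symbol (3400), by synonym (243), or as in the file (7458).

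Ratios were fitted with limma 3.58.1 in R 4.3.3 (lmFit, eBayes, dye term, 2 residual and 4.53 prior degrees of freedom). All tests were two-sided; p-values were adjusted by Benjamini-Hochberg over all genes or all probes, and calls used an adjusted p under 0.05. The fit was run on simulated ratios with independent noise and no difference between slides, so that run does not bear on such differences. Every tested member is named; fold and arrays are given at an unadjusted p under 0.05, and related lists name called genes or else the 2 genes with the smallest p. Members and lists were chosen with earlier results of these data known. Alternatives covered background correction, normalization, filter, probe choice, model terms, slides, single replicates and the deposited value table.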

Additional observations from a re-analysis of the deposited data

Results flagged for a closer look

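In 4 of the 32 members, 1 array stood apart from the other 3, with a gap to its nearest neighbour that took up most of the range. Chance alone marks about 1 in 20 groups of this size. Adamts16 had a log2 ratio of 0.878 on replicate 3, where the nearest other array had 0.203. Adamts19 had 0.992 on replicate 1, with 0.383 next. Adamts7 had 0.0990 on replicate 4, with 0.427 next. Adamts9 had -0.276 on replicate 4, with -0.0443 next.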

How the results depend on the processing

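No member was called as a gene with the processed signals (1.08% of all genes), Aquantile scaling between arrays (0.852%) or the deposited value table (1.11%). None was called with no filter on dim probes (0.00335%), with a sex label term (0.0103%) or within slide 2 (0%), where almost no gene of any kind was called. The count was 1 with median centring (Adamts4, for which limma set an infinite prior), against 1.32% of all genes. It was 1 with the filter in both channels (1.19%) and 1 with the mean of all probes (1.06%), Adamts18 in both. Without the dye term it was 1 (Adamts8, 1.33%). Within slide 1 it was 2 (Adamts4 and Timp3, 2.85%), and with a slide term 13 (11 higher and 2 lower, among 2418 called genes, 12.5%). Leaving out 1 replicate gave between 0 and 2 member genes (Adamts4 and Adamts19 without replicate 3, Adamts18 without replicate 4) and between 0 and 1 member probes; the replicates were left out of the probe test by a choice made after seeing the data. Over all genes, 165 calls became 34 to 403 when 1 replicate was left out. Members other than Adamts1, Adamts2, Adamts4, Adamts10, Adamtsl1 and Mmp23 kept their sign under every alternative. Among them, Adamts18 and Adamts8 stood at 0.43 to 0.62 and 0.18 to 0.64. All alternatives but the mean of all probes used only the 3′-side probe of each. The 5′-side probe of Adamts18 also stood above 0 on every array, and that of Adamts8 stood below 0 on every array.

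Signs reversed within slide 2 in Adamts1 (-0.0329), Adamts2 (-0.0993), Adamts4 (-0.0171), Adamts10 (0.235) and Mmp23 (0.0420), and within slide 1 in Adamtsl1 (0.261). Leaving out 1 replicate took Adamts2 from -0.00715 to 0.342, Adamts10 from -0.247 to 0.139, Adamtsl1 from -0.152 to 0.142 and Mmp23 from -0.0528 to 0.0487. The cause was not tested. Each array pairs 1 cDKO with 1 control extract, so the ratios are paired as they stand. Signal over background limits the genes near it, and left 19 members untested.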
